A study of Mus musculus with 8 samples.

Results

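The genes that encode the proteins of the cytosolic ribosome were examined in mouse embryos at E10.5, in tissue dissected from the region of the right ventricle and outflow tract (OFT/RV). They were taken by symbol: every gene named Rps or Rpl followed by a number, with the endings a, x, l, al or l1 allowed, together with Rplp0, Rplp1, Rplp2 and Rpsa. This gave 84 of the 20701 gene symbols in the table, 31 of the small and 53 of the large subunit. They had 108 transcripts between them, and for each gene the transcript with the highest mean count was kept. The CTRL group was 4 wild-type embryos and the Isl1_hypo group was 4 embryos hypomorphic for the LIM-homeodomain transcription factor gene Isl1, in which both germline alleles carry loxP sites and a neomycin cassette. All 8 were labelled as strain C57BL/6, each library came from polyadenylated RNA of 1 embryo, and the labels name no treatment. Isl1 itself had a mean of 47.2 ± 13.3 CPM in CTRL and 9.67 ± 2.83 CPM in Isl1_hypo (SD, n = 4), where CPM is counts scaled to a library size of 1000000 after TMM normalization, in the direction of the labels.

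Ribosomal proteins join ribosomal RNA in the nucleolus to build the small subunit, which reads the mRNA, and the large subunit, which forms the peptide bond. Each protein is needed once or a few times per ribosome, and their mRNAs share a pyrimidine-rich start through which mTOR signalling controls their translation. Reduced dose of some of them, among them RPS19, RPL5 and RPL11, causes Diamond-Blackfan anaemia, which can include heart malformations. The mRNAs are short and abundant, and mammalian genomes hold many retrocopies of them.

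The libraries held 29748458 to 46678973 counts in CTRL and 18422245 to 33050298 in Isl1_hypo. Cardiomyocyte markers were abundant in every library, with the 10 genes of the list summing to 41486 to 52014 CPM in CTRL and 43575 to 52638 CPM in Isl1_hypo. The 12 globin genes summed to 2020.1 to 11899 CPM in CTRL and 11872 to 25522 CPM in Isl1_hypo. The 11 other erythroid genes summed to 171 to 273 CPM in CTRL and 302 to 483 CPM in Isl1_hypo, and the 6 endothelial genes to 644 to 751 CPM and 492 to 631 CPM. The epithelial list summed to 69.9 to 116 CPM in CTRL and 125 to 324 CPM in Isl1_hypo, highest in replicate 1. The groups did not overlap in these 3 sums, and the part of cell makeup in the results was not tested. Expression from the Y chromosome was seen in 1 of 4 CTRL embryos and in 3 of 4 Isl1_hypo embryos. In dissected tissue, fewer cells of a type and less RNA per cell cannot be told apart.

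Because a read from a retrocopy and a read from its parent gene can be alike, each transcript was compared with the mm9 genome. For 82 of the 84 genes a GENCODE M1 transcript was found, and it was divided into all its stretches of 50 bases. The share of these words that also occurred, letter for letter and on either strand, outside the gene had a median of 60.5% and ranged from 0 to 99.7%. The starts of 4 coding sequences are shown because these genes carry the contrasts described below. Each is the first 120 coding bases, 5′ to 3′, in lower case, with capitals for bases that lie in a 50-base word found elsewhere in mm9. Rpl8 (chr15:76734501-76736748, plus strand) was abundant and had few such words, Rps19 (chr7:25669390-25674825, plus strand) and Rps2 (chr17:24855061-24858874, plus strand) varied most between libraries among the genes at 5 CPM or more, and Rpl3 (chr15:79908211-79913836, minus strand) was nearly uncounted.
Rpl8: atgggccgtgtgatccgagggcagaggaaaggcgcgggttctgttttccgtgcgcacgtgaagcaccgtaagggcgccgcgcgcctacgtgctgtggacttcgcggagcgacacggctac
Rps19: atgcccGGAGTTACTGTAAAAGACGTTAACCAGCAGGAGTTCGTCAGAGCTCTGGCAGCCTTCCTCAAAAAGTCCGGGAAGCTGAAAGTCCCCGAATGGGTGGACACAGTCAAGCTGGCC
Rps2: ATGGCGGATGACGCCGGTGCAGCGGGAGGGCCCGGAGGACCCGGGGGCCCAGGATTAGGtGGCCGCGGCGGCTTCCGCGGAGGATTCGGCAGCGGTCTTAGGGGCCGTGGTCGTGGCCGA
Rpl3: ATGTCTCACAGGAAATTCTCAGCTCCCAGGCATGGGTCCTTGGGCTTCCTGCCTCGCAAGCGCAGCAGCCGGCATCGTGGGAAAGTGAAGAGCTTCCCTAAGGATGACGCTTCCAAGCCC

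In Rpl8 0 of the 120 bases were covered, in Rps19 114, in Rps2 119 and in Rpl3 120. Over the whole coding sequence the covered share was 14.6% in Rpl8, 93.6% in Rps19, 99.8% in Rps2 and 99.9% in Rpl3.

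The products of these genes meet in 1 particle, but their counted levels differed widely. Per kilobase (kb) of transcript, the 81 genes that passed the filter on low counts started at 0.439 CPM per kb and had a median of 32.4. In plain CPM, 6 genes had a mean of at least 500, among them Rpl4, Rpl8 and Rplp0. Another 25 lay between 50 and 500 CPM, 31 between 5 and 50, 12 between 1 and 5, and 10 were under 1 CPM.

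Rpl8, which sits near the site of peptide bond formation, was among the highest at 914 CPM per kb, with 552, 746, 879 and 985 CPM in CTRL replicates 1 to 4 and 948, 831, 474 and 831 CPM in Isl1_hypo. The low libraries were CTRL replicate 1 and Isl1_hypo replicate 3, and the groups overlapped. Rps14 and Rpl4 stood at 874 and 861 CPM per kb. Rpl4, which lines the exit tunnel of the nascent chain, was steadier than Rpl8, with 1102, 1248, 1236 and 1241 CPM in CTRL and 1189, 1201, 1131 and 1367 CPM in Isl1_hypo. The means per kb of Rpl8, Rps14 and Rpl4 differed by less than the libraries of Rpl8 differed among themselves.

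At the other end, Rpl3, a core protein of the large subunit, had 1.57, 0.418, 0.571 and 0.470 CPM in CTRL and 0.543, 0.562, 0.0632 and 0.726 CPM in Isl1_hypo, from 2 to 49 counts per library. Rps12 had 0.344 to 0.576 CPM in CTRL and 0.0948 to 0.543 CPM in Isl1_hypo. Neither came near the level of Rpl8, whose product stands beside theirs in the ribosome. Rpl11, Rpl12 and Rps18 were also tested at a mean under 1 CPM. Rps28 held 2 to 18 counts per library and did not pass the filter.

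The 11 genes with under 20% of their words elsewhere had a median of 76.0 CPM per kb and supplied 48.3 to 51.1% of all ribosomal protein counts in each library. For the 46 genes with 20 to 80% the median was 39.3 CPM per kb. The 25 genes with over 80% had a median of 6.63 CPM per kb and supplied 3.52 to 4.02% of the counts. Across genes, the level per kb had a Spearman rho of −0.41 with the share of 50-base words elsewhere and of −0.49 with the share of 100-base words (n = 82 genes, which share the same libraries and are not independent replicates). With transcript length rho was −0.04 (n = 84). How reads with several matches were counted is not given in the sources used here, and the part of these copies in the levels was not tested.

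**Figure D1:**
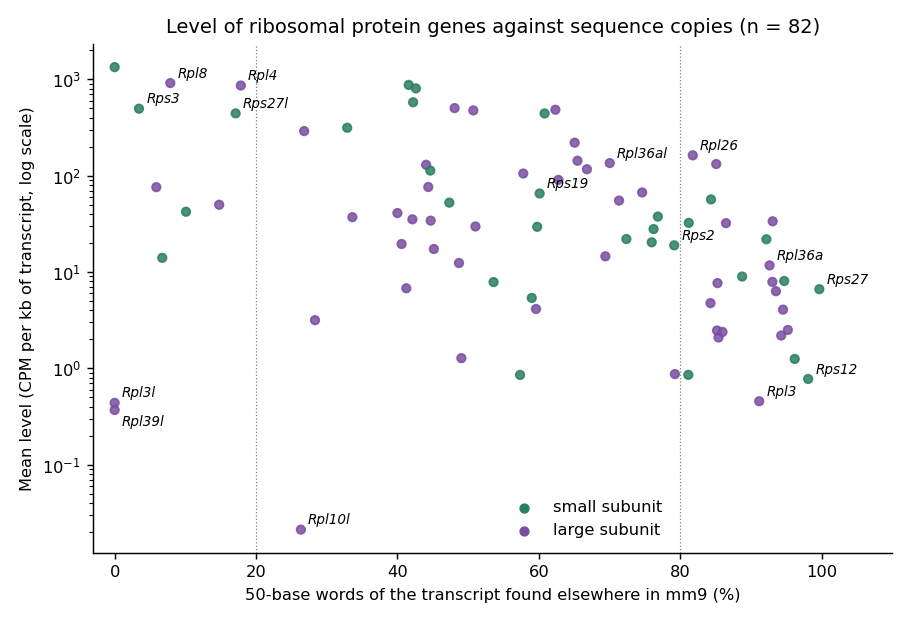
Mean level over the 8 libraries (CPM per kb of transcript, log scale) against the percent of a transcript's 50-base words found elsewhere in mm9, 1 point per gene (n = 82), with dotted lines at 20% and 80%. Rps3, Rpl8 and Rpl4 lie at the upper left, while Rpl3 and Rps12 lie at the lower right, and the paralogues Rpl3l and Rpl39l are low with no words elsewhere and Rpl10l is low with 26.3%.

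Exceptions ran both ways. Rpl26 held 162 CPM per kb with 81.8% of its words elsewhere, the highest level among the 25 genes with over 80%. Rpl3l and Rpl39l had no word elsewhere and stood at 0.439 and 0.370 CPM per kb.

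Most genes of the family were high or low in the same libraries, and these libraries were found in both groups. The 84 genes supplied 0.745, 0.946, 0.997 and 1.10% of the counts in CTRL replicates 1 to 4, and 1.04, 0.977, 0.805 and 1.02% in Isl1_hypo. CTRL replicate 1 and Isl1_hypo replicate 3 were low, CTRL replicate 4 was high, and the groups overlapped. The means were 0.948 ± 0.151% in CTRL and 0.960 ± 0.107% in Isl1_hypo (SD, n = 4). The Wilson 95% interval of a share reached at most 0.00464 percentage points to either side, far less than the spread between libraries, and covers counting error only.

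Of the 81 tested genes, 41 had their lowest value in CTRL replicate 1 and 26 in Isl1_hypo replicate 3, which is 50.6% and 32.1%. Among all 13769 genes tested the shares were 17.1% and 28.4%, the latter near that of the family. In Isl1_hypo replicate 3, 28 of the 81 genes lay above their CTRL mean and 11 had their highest value. CTRL replicate 4 held the highest value of 42 ribosomal protein genes, or 51.9%, against 10.4% of all genes. The median deviation of the family from each gene's CTRL mean was −0.38, 0.02, 0.12 and 0.26 (log2) in CTRL replicates 1 to 4 and 0.14, 0.03, −0.18 and 0.10 in Isl1_hypo, while the median of all genes stayed between −0.01 and 0.01. For small- and large-subunit genes the medians were −0.43 and −0.37 in CTRL replicate 1 and −0.17 and −0.28 in Isl1_hypo replicate 3, and their difference was not tested.

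**Figure D2:**
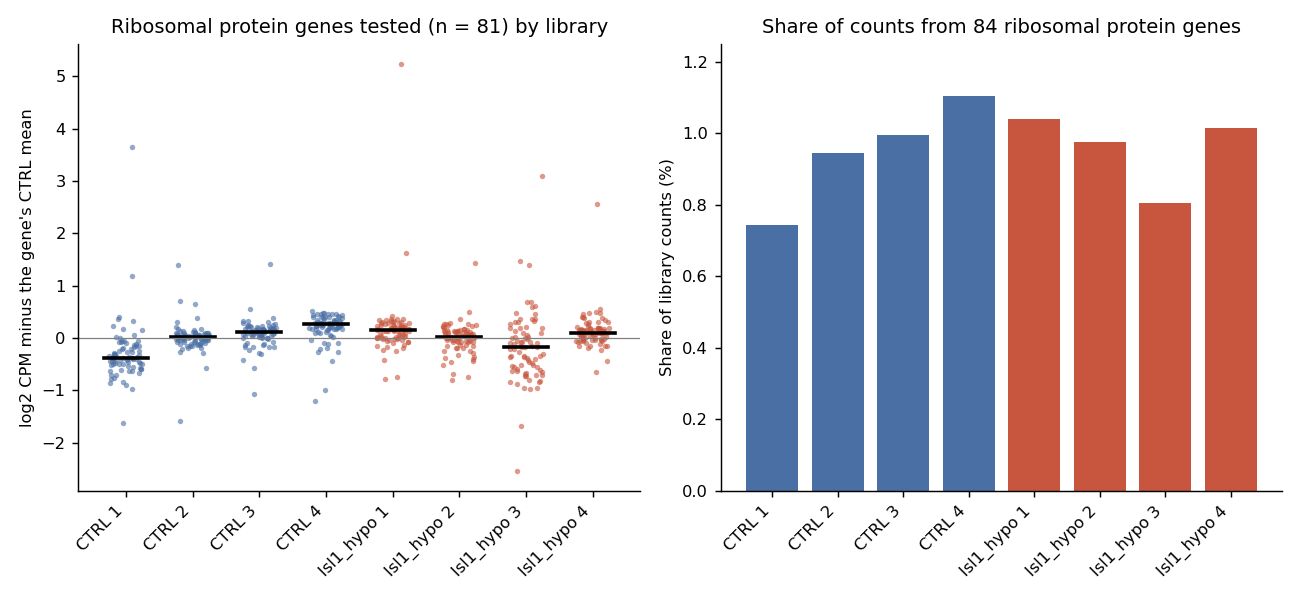
Left, deviation of each of the 81 tested ribosomal protein genes from its CTRL mean (log2 CPM, points, with the median as a bar) in each library; right, percent of all counts from the 84 genes. CTRL 1 and Isl1_hypo 3 lie lowest in both panels and CTRL 4 highest, with medians of −0.38, −0.18 and 0.26.

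Transcript length was read beside this, since 62 of the 84 genes were shorter than 1000 bases and their median was 705.5, against 2924 for all genes tested. In CTRL replicate 1, the 360 other genes of at most 1000 bases and at least 50 CPM also lay low, with a median deviation of −0.24, as did the 78 mitochondrial ribosomal protein genes at −0.18 and the 76 nuclear genes of the respiratory chain at −0.22. In Isl1_hypo replicate 3 these 3 sets lay high, at 0.26, 0.33 and 0.26, while the cytosolic ribosomal protein genes lay low. By length alone, the 110 tested genes of at most 500 bases, 16 of them in the family, had a median of −0.14 in that library. The 793 genes of over 500 and up to 1000 bases, 44 of them in the family, had 0.20. The 17 translation factors and partners whose mRNAs have the same pyrimidine-rich start, such as Eef1a1 and Pabpc1, followed the ribosomal protein genes, at −0.23 in both libraries. Isl1_hypo replicate 3 also had the strongest trend on GC content, −0.36 (log2) per 10 percentage points of GC over all genes, against −0.10 to 0.04 in the other libraries. Within the family the trend in that library was 0.21, against −0.07 to 0.15 in the other libraries. The Spearman rho of the family's deviations with GC content there was 0.055 (n = 79 genes). The part of RNA quality, length or GC content in these deviations was not tested.

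Between the genotypes, no ribosomal protein gene passed the test. In the edgeR quasi-likelihood test with Benjamini-Hochberg adjustment over all 13769 genes, 0 of the 81 tested genes were called at an adjusted p under 0.05, against 0.269% of all genes (37, of which 20 were higher). DESeq2 called 0 of them against 2.32% of all genes, and limma-voom with sample weights 0 against 0.973%. At an unadjusted p under 0.05 there was 1 gene, Rpl15, against 11.9% of all genes, and the groups did not overlap for 2, Rpl15 and Rpl38, against 8.50% of all genes. The median log2 fold change was −0.03, with 36 genes higher in Isl1_hypo and 45 lower, beside a median of 0.01 over all genes, of which 50.9% were higher. For the small subunit the median was 0.01 (n = 30) and for the large subunit −0.04 (n = 51).

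The direction of the median rested on single libraries. It was −0.12 with 23 genes higher without CTRL replicate 1, 0.07 with 60 higher without CTRL replicate 4, and 0.08 with 56 higher without Isl1_hypo replicate 3. With both CTRL replicate 1 and Isl1_hypo replicate 3 left out, a choice made after seeing the data, it was −0.02 with 35 higher. With the mean log2 CPM of globin genes as a covariate it was −0.19 with 17 higher. In all of these 0 ribosomal protein genes were called. Over all genes, 8 of 13963 were called without CTRL replicate 1, 40 of 13873 without CTRL replicate 4 and 48 of 13909 without Isl1_hypo replicate 3. With both CTRL replicate 1 and Isl1_hypo replicate 3 left out 49 of 13900 were called, and with the globin covariate 0 of 13769.

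How small a change the data could hold was read from the 95% interval of each fold change. For 37 of the 81 genes (45.7%) the interval lay wholly within 1.5-fold in either direction, a share close to that of all genes tested (46.8%). Among the 31 genes at 50 CPM or more it did so for 24. For the rest apart from Rpl15, whose interval ran from 0.12 to 0.59, a change of 1.5-fold could not be told from none at this depth and spread.

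**Figure D3:**
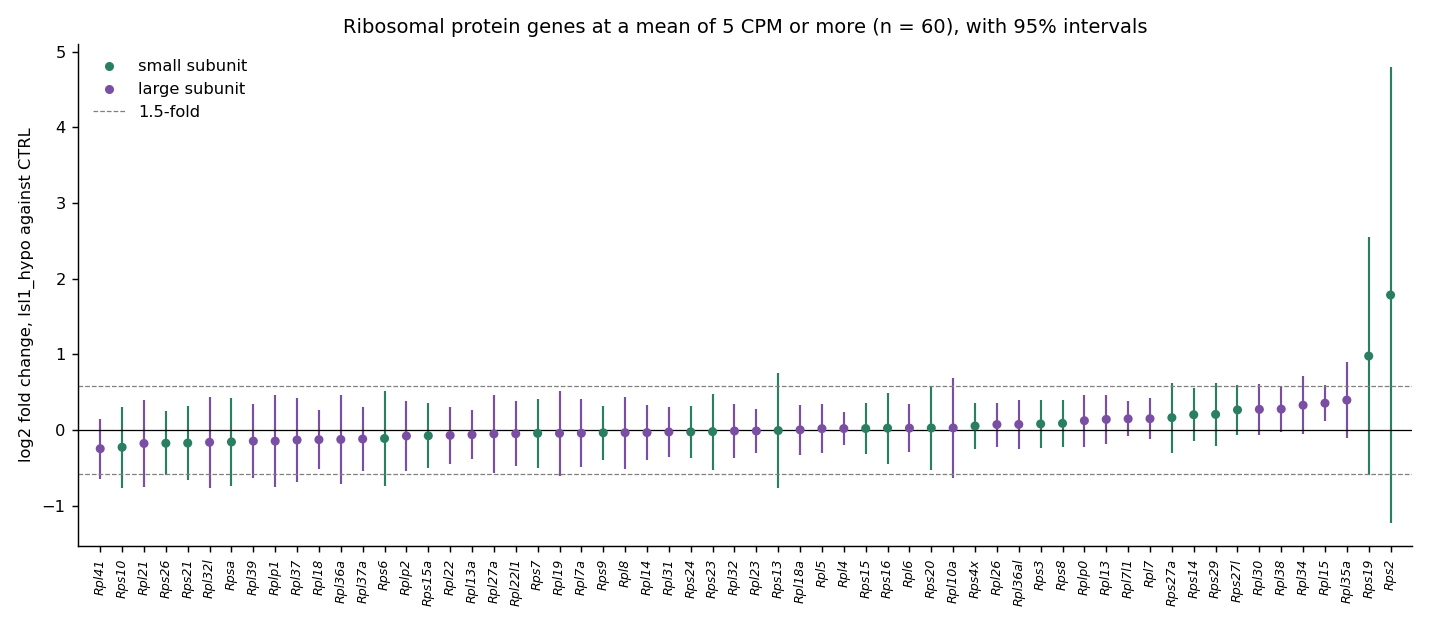
Log2 fold change of Isl1_hypo against CTRL with its 95% interval (edgeR quasi-likelihood test) for 60 of the 62 ribosomal protein genes with a mean of at least 5 CPM, ordered by value and coloured by subunit; dashed lines mark 1.5-fold. The estimates run from −0.25 for Rpl41 to 1.78 for Rps2, and the intervals of Rps19 and Rps2 are far wider than the others.

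Rpl15, a large-subunit protein mutated in some cases of Diamond-Blackfan anaemia, had 62.1, 60.4, 66.1 and 75.004 CPM in CTRL and 81.6, 92.6, 80.8 and 81.7 CPM in Isl1_hypo. All 4 Isl1_hypo libraries lay above all CTRL libraries. The log2 fold change was 0.35 (SE 0.11), with an unadjusted p of 0.00672 and an adjusted p of 0.237 in edgeR's quasi-likelihood test, so it was not called. Rpl38, known from the tail-short mouse for a role in patterning of the axial skeleton, had 18.1, 21.7, 23.5 and 24.4 CPM in CTRL and 27.5, 25.2, 24.8 and 28.6 CPM in Isl1_hypo. Here too the groups did not overlap, but the gap was only from 24.4 to 24.8 CPM. Its log2 fold change of 0.28 (SE 0.14) had an adjusted p of 0.462.

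Apart from Rpl15 and Rpl38 and from Rps2 and Rps19, described below, the largest positive estimates among genes of at least 5 CPM were 0.39 for Rpl35a, 0.33 for Rpl34, 0.27 for Rpl30 and 0.26 for Rps27l. The largest negative ones were −0.25 for Rpl41, −0.23 for Rps10, −0.18 for Rpl21 and for Rps26, −0.17 for Rps21, −0.16 for Rpl32l and Rpsa, and −0.15 for Rpl39. Adjusted p-values of these 12 genes ran from 0.495 to 0.848 in the edgeR fit. Their groups overlapped in every case. Rpl41, which encodes a very small basic protein, had 32.2, 45.7, 50.9 and 56.2 CPM in CTRL and 42.9, 37.4, 31.1 and 44.4 CPM in Isl1_hypo, so that its lowest CTRL library lay among the Isl1_hypo values.

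Rplp0, Rplp1 and Rplp2 form the stalk of the large subunit, which recruits translation factors. Their mean levels were 475, 483 and 219.8 CPM per kb, in that order. Rplp1 had 132, 228, 271 and 309 CPM in CTRL and 262, 242, 114 and 231 CPM in Isl1_hypo. CTRL replicate 1 and Isl1_hypo replicate 3 lay below the other 6 libraries. Its log2 fold change was −0.15 (SE 0.28), that of Rplp0 0.12 (SE 0.16) and that of Rplp2 −0.08 (SE 0.21).

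Rpl5 and Rpl11, which with 5S ribosomal RNA can bind MDM2 and so link ribosome assembly to p53, were at 20.5 to 30.4 CPM and at 0.284 to 0.695 CPM over the 8 libraries. Their log2 fold changes were 0.02 (SE 0.15) and −0.26 (SE 0.56). Rps6, the substrate of S6 kinase, had 7.39, 17.3, 12.7 and 9.11 CPM in CTRL and 12.4, 11.6, 6.70 and 12.3 CPM in Isl1_hypo, which overlapped (log2 fold change −0.11, SE 0.28). Rps27a, made as a fusion with ubiquitin, had a log2 fold change of 0.16 (SE 0.21). Rpsa, a small-subunit protein whose loss of 1 copy in humans causes absence of the spleen, had 10.9, 13.5, 16.6 and 20.3 CPM in CTRL and 17.1, 16.8, 7.71 and 13.5 CPM in Isl1_hypo, and no group lay apart.

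The sexes were unequal between the groups, so the X-linked genes were read on their own. Rps4x had 45.8 to 62.2 CPM in CTRL and 46.0 to 63.1 CPM in Isl1_hypo, Rpl39 44.4 to 75.4 and 31.9 to 69.7, Rpl36a 3.78 to 7.82 and 4.27 to 6.30, and Rpl10 1.67 to 2.08 and 1.42 to 1.74. All 4 overlapped between the groups. With sex as a covariate 0 ribosomal protein genes were called, against 3 of all 13769 genes tested. The lowest adjusted p in the family was then 0.554 in edgeR.

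Rps19 and Rps2 stood apart from the rest of the family. Rps19, the gene most often mutated in Diamond-Blackfan anaemia, had 5.82, 47.7, 48.1 and 7.80 CPM in CTRL and 10.48, 48.9, 50.01 and 105.7 CPM in Isl1_hypo. CTRL replicates 1 and 4 and Isl1_hypo replicate 1 were low, and Isl1_hypo replicate 4 was high. Rps2, a small-subunit protein near the entry of the mRNA channel, had 30.8, 0.763, 1.12 and 1.18 CPM in CTRL and 92.3, 1.35, 21.0 and 1.52 CPM in Isl1_hypo, from 31 to 1699 counts. CTRL replicate 1 and Isl1_hypo replicates 1 and 3 were high and the other 5 libraries lay between 0.763 and 1.52 CPM. CTRL replicate 4 was low for both genes, while CTRL replicate 1 and Isl1_hypo replicate 1 were low for Rps19 and high for Rps2.

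The ratio of the highest to the lowest library was 18.2 for Rps19 and 121 for Rps2. Of the 62 ribosomal protein genes at 5 CPM or more these were the only 2 with a ratio over 3, which is 3.23%, against 6.94% of the 10744 genes at that level. The median ratio was 1.85 for the family and 1.64 for all genes. The log2 fold changes were 0.98 (SE 0.72) for Rps19 and 1.78 (SE 1.38) for Rps2, with adjusted p of 0.614 and 0.634 in edgeR, and the groups of both overlapped. Single libraries moved both estimates. That of Rps2 was 4.81 without CTRL replicate 1 and −0.08 without Isl1_hypo replicate 1, while that of Rps19 was 0.64 without CTRL replicate 1, 0.42 without Isl1_hypo replicate 4 and 1.39 without CTRL replicate 3. With 1 library left out the adjusted p ran from 0.310 to 0.985 for Rps2 and from 0.391 to 0.861 for Rps19 in edgeR. Their coding starts, printed above, are almost wholly covered by words found elsewhere in the genome, in 20 other places for Rps19 and 78 for Rps2 over the whole transcript. The part of these copies in the spread between libraries was not tested. Without Rps2 and Rps19 the family's share of counts was 0.944 ± 0.151% in CTRL and 0.952 ± 0.105% in Isl1_hypo.

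**Figure D4:**
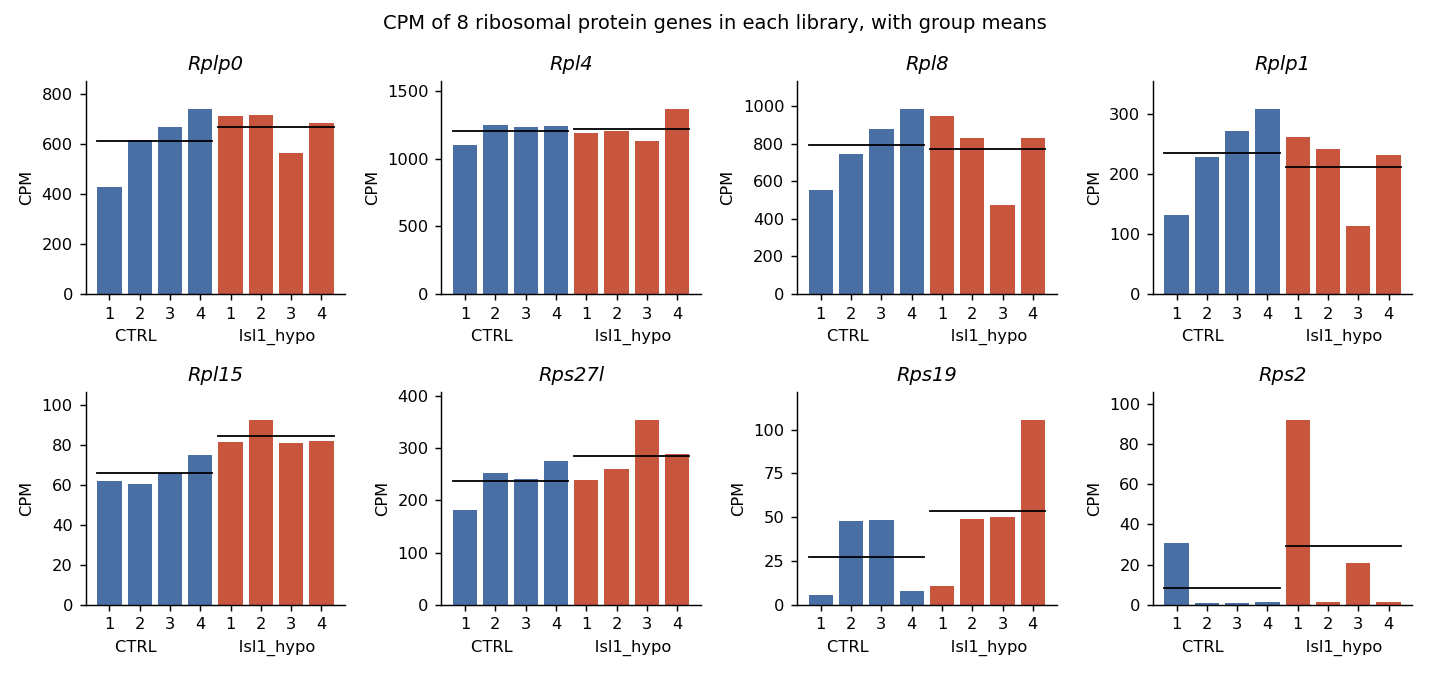
CPM of 8 ribosomal protein genes in each library (bars, CTRL in blue and Isl1_hypo in red, replicates 1 to 4 from left to right), with the group means as lines. Rplp0, Rpl8 and Rplp1 are lowest in CTRL replicate 1 and Isl1_hypo replicate 3, Rpl4 varies less, Rpl15 is the gene with the smallest unadjusted p, and the highest of the 8 libraries is 18.2 times the lowest for Rps19 and 121 times for Rps2.

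Several ribosomal proteins have a paralogue encoded by a separate gene, and 7 such pairs were compared per kb in each library. The starts of 2 pairs are shown because in both the less well known copy held most of the counts. Capitals mark the bases at which the pair differ over the first 120 coding bases, 28 between Rps27 (chr3:90016593-90017573, minus strand) and Rps27l (chr9:66793893-66797323, plus strand), and 18 between Rpl36a (chrX:131120193-131122601, plus strand) and Rpl36al (chr12:70283718-70285070, minus strand).
Rps27: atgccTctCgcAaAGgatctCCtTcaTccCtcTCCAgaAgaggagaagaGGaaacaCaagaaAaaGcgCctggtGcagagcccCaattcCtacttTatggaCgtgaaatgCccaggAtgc
Rps27l: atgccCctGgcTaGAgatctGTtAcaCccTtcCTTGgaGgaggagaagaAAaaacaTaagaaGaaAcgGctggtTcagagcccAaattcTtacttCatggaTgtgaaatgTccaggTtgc
Rpl36a: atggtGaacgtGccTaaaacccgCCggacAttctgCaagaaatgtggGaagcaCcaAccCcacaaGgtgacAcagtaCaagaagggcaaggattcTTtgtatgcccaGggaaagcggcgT
Rpl36al: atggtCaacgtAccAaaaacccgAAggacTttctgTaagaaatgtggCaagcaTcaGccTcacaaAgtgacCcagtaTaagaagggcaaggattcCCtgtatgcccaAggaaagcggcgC

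With differences this dense, the longest run shared by a pair's coding sequences was 11 bases for Rps27 and Rps27l and 24 bases for Rpl36a and Rpl36al.

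Rps27l, a target of p53, had 182, 253, 240.3 and 276 CPM in CTRL and 238, 260.1, 355 and 289 CPM in Isl1_hypo, against 2.98, 4.31, 4.00 and 4.15 CPM and 3.80, 3.86, 3.45 and 3.77 CPM for Rps27. Per kb the paralogue exceeded its partner by a log2 ratio of 5.82 to 6.01 in CTRL and 5.92 to 6.64 in Isl1_hypo. The ratio was highest in Isl1_hypo replicate 3, and the groups overlapped. Of the words of Rps27, 99.7% occurred elsewhere in mm9, and of those of Rps27l 17.1%.

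Rpl36al had 55.5 to 75.7 CPM in CTRL and 54.6 to 84.5 CPM in Isl1_hypo, and its X-linked partner Rpl36a 3.78 to 7.82 and 4.27 to 6.30 CPM. The log2 ratio per kb was 3.18 to 3.79 in CTRL and 3.50 to 3.78 in Isl1_hypo. Of their words, 70.0% and 92.6% occurred elsewhere. The coding sequences, 321 bases each, were 87.9% identical.

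Rpl22l1 and Rpl22, close relatives in the large subunit, were both well expressed. Rpl22l1 had 49.7, 68.6, 73.9 and 81.4 CPM in CTRL and 77.8, 75.7, 43.4 and 67.5 CPM in Isl1_hypo, and Rpl22 163, 164, 182 and 223 CPM and 216, 196, 121 and 164 CPM. Per kb the paralogue was the higher, by a log2 ratio of 0.61 to 1.06 in CTRL and 0.84 to 1.04 in Isl1_hypo. Both were low in Isl1_hypo replicate 3, and neither was called, with log2 fold changes of −0.05 (SE 0.20) and −0.07 (SE 0.17).

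Rpl7l1 lay below Rpl7 in every library, with log2 ratios per kb of −1.49 to −1.05 in CTRL and −1.48 to −0.75 in Isl1_hypo. Both genes had a log2 fold change of 0.15 (SE 0.10 and 0.12).

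The paralogues known from muscle and testis were scarce. Rpl3l, known from heart and skeletal muscle, had 0.192, 0.689, 0.348 and 0.513 CPM in CTRL and 1.36, 0.262, 1.14 and 0.277 CPM in Isl1_hypo, from 6 to 36 counts, with a log2 fold change of 0.78 (SE 0.72). The estimate was 0.36 without Isl1_hypo replicate 1, 0.49 without Isl1_hypo replicate 3 and 0.08 with limma-voom and sample weights. The groups overlapped. Rpl3 held 2 to 49 counts, and the log2 ratio of Rpl3l to Rpl3 lay above 0 in some libraries and below 0 in others. Rpl39l held 0 to 25 counts and was at 0 in CTRL replicate 2 and Isl1_hypo replicate 2. Rpl10l was at 0 in 7 libraries and held 5 counts in Isl1_hypo replicate 4. A count of 0 allows up to 3 counts, which is 0.0641 to 0.163 CPM in these libraries.

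**Figure D5:**
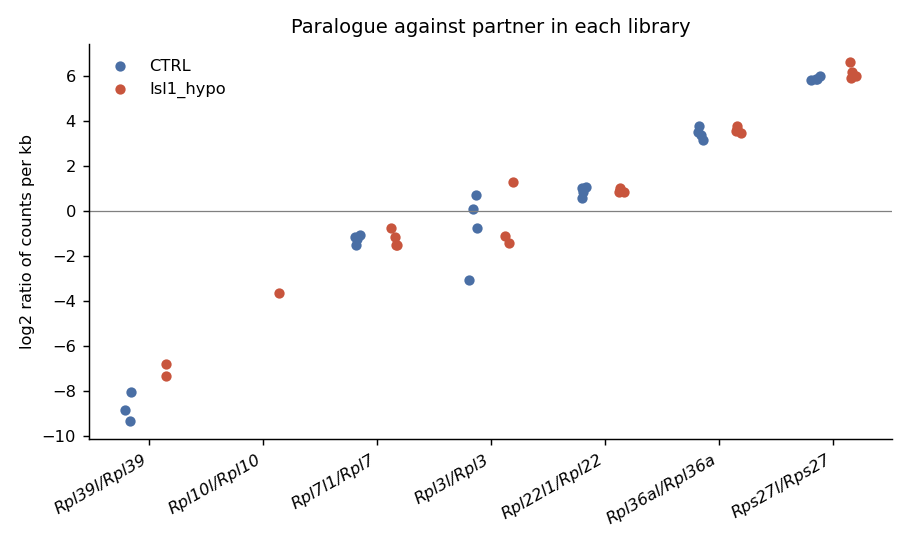
Log2 ratio of counts per kb of each paralogue to its partner, 1 point per library with over 3 counts for both genes, CTRL in blue and Isl1_hypo in red. Rps27l and Rpl36al exceed their partners in all 8 libraries, Rpl7l1 lies below Rpl7 in all 8, and the Rpl3l points scatter on both sides of 0.

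Genes that make, regulate or sense ribosomes were read beside the family. None of the 40 genes of ribosome biogenesis was called by edgeR's quasi-likelihood test with Benjamini-Hochberg adjustment, with 20 higher and 20 lower and a median log2 fold change of −0.01. The smallest unadjusted p was that of Tcof1, which is needed for ribosomal RNA transcription in neural crest cells, at a log2 fold change of −0.60 (SE 0.15) with an adjusted p of 0.170, and the groups did not overlap. Of the 14 genes of TOR and MYC control 0 were called, among them Myc at 0.35 (SE 0.13) and an adjusted p of 0.312. Of the 11 genes of the p53 response 0 were called, with 8 higher and a median of 0.21, and Trp53inp1 had the smallest p (log2 fold change 0.64, SE 0.18, adjusted p 0.215). At an unadjusted p under 0.05 these lists held 2, 1 and 2 genes, in that order, against 11.9% of all genes. After adjustment 0.269% of all genes were called.

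Genes of the mitochondrial ribosome and of the respiratory chain were also read beside the family. Of the 78 genes of the mitochondrial ribosome 67 were higher in Isl1_hypo, with a median log2 fold change of 0.10 and 0 called, and of the 76 respiratory chain genes 56, with a median of 0.09 and 0 called. Of all genes tested 50.9% were higher and 0.269% were called. Of the 360 other genes of at most 1000 bases and at least 50 CPM 253 were higher, with a median of 0.07. The difference between these sets and the family was not tested. For the mitochondrial ribosome, the respiratory chain and the other short genes, in that order, the medians were 0.04, 0.04 and 0.02 without Isl1_hypo replicate 3. They were 0.05, 0.01 and 0.0018 without CTRL replicate 1 and 0.12, 0.14 and 0.12 without CTRL replicate 4. With the GC trend of each library removed they were 0.15, 0.17 and 0.15. At an unadjusted p under 0.05 there were 1 and 3 genes, against 11.9% of all genes.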

How the data were processed

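RNA from the OFT/RV of 4 CTRL and 4 Isl1_hypo embryos was sequenced on BGISEQ-500, and per the labels and the study's methods the authors aligned the reads to mm9 with STAR and counted exon reads per RefSeq transcript with HOMER, on both strands. Counts were deposited by the authors as raw integers. Reads of overlapping or antisense genes therefore cannot be told apart. Transcript length in bases was taken as listed in the deposited table. The authors' 8 columns of RPKM and their DESeq2 comparison (mean normalized signal, log2 fold change, standard error, Wald statistic and p-values) were not used here.

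Each gene was represented by its transcript of highest mean count. Counts were filtered with filterByExpr, scaled by TMM and tested with edgeR 4.0.16 (R 4.3.3; glmQLFit and glmQLFTest, no covariates), with Benjamini-Hochberg adjustment over 13769 genes and a threshold of 0.05. The fit was tested on simulated data. Standard errors were derived from the fold change and its F statistic. Log2 CPM has a prior count of 2. Replicates are single embryos. Lists are given by counts and medians with no test. The alternatives were RLE and upper-quartile size factors, TMM without ribosomal protein and globin genes, DESeq2 1.42.0, limma-voom (limma 3.58.1) with sample weights, 2 other filters, the longest transcript, the replicate number as a block, globin removal, globin and sex covariates, removal of length trends, thinning to equal depth and leaving out each library. Removal of GC trends (loess with a span of 0.5, GC known for 91.4% of tested genes), leaving out 2 libraries together and leaving out Rps2 and Rps19 were added after seeing the data.

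Genes were named by rule: Isl1, any member called, the 8 largest positive and negative estimates at 5 CPM or more, the 5 highest and 5 lowest per kb, members whose groups did not overlap, the paralogue pairs, a list of stalk, 5S-binding, X-linked and disease genes, and up to 3 genes of smallest p in each related list. Some genes that the rule named are not reported here or drawn in the plot of fold changes. Rps3, Rpl7a, Rpl12, Rps18, Rps28 and Rpl26 were named after their values were seen. The members and lists were chosen with earlier results of these data known. Words of 50 and 100 bases came from GENCODE M1 transcripts and were searched on both strands of mm9. Coding sequences of pairs were aligned with Biopython 1.88. A count of 0 was taken to allow 3 counts. This floor and the 95% Wilson intervals cover counting error only, since molecular identifiers were not used.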

Additional observations from a re-analysis of the deposited data

Results flagged for a closer look

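In 4 CTRL or 4 Isl1_hypo libraries, a library was set apart when its gap to the nearest of the others exceeded Dixon's 95% limit for the range of the group. This was so in 6 of 92 groups examined, where chance gives about 1 in 20, or 4.6.

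CTRL replicate 1 was set apart for 3 genes. Rps2 stood there at 30.8 CPM against 0.763 to 1.18 CPM in the other CTRL libraries, Rpl3 at 1.57 CPM against 0.418 to 0.571, and Rpl4 at 1102 CPM against 1236 to 1248. Rps2 and Rpl3 were thus high in the library in which most ribosomal protein genes were low, while Rpl4 was low.

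Isl1_hypo replicate 3 was set apart for Rpl11, at 0.284 CPM against 0.519 to 0.543, and for Rps6, at 6.70 CPM against 11.6 to 12.4. Isl1_hypo replicate 2 was set apart for Rpl15, at 92.6 CPM against 80.8 to 81.7, and the other 3 Isl1_hypo libraries also lay above every CTRL library for that gene.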

How the results depend on the processing

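No ribosomal protein gene was called under any of the 24 alternatives (lowest adjusted p 0.0825, with DESeq2). Over all genes tested these alternatives called from 0 genes, with the globin covariate and with the replicate block, to 319, with DESeq2. The family's median log2 fold change of −0.03 ran from −0.12 to 0.08 when 1 library was left out and from −0.19 (globin covariate) to 0.02 (limma-voom) otherwise. The number of genes higher in Isl1_hypo, 36 in the reported fit, was 17 with the globin covariate and 23 to 60 when 1 library was left out, so the balance of directions is not stable. The mean share of counts when 1 library was left out was 0.896 to 1.02% in CTRL and 0.933 to 1.01% in Isl1_hypo. Of 953 values of the 40 named and tested genes under alternatives, 0 passed the threshold and 0 changed sign with both values beyond their own standard error, while sign changes within 1 standard error were not counted. The log2 fold change of Isl1, −2.29, was −2.46 to −2.14 when 1 library was left out. It lost its call with the globin covariate (−2.27, adjusted p 0.384). The globin level differed between the groups and cannot be told apart from genotype. The cause of the lost call was not tested.

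CTRL and Isl1_hypo share replicate numbers, but no pairing by number was seen over all tested genes. Deviations of same-numbered libraries correlated at −0.0209 to 0.0219, and 0 of 4 pairs exceeded 0.1. With the replicate number as a block, 0 ribosomal protein genes and 0 of all genes were called, against 37 without it, the family median was −0.01 with 36 genes higher, and Isl1 was at −2.29 with an adjusted p of 0.0722 in edgeR.

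For 10 genes under 1 CPM and for genes whose sequence recurs in the genome, the counts limit what can be said of the true level.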
